A study of Mus musculus with 10 samples.

Results

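Heat-shock high alveolar cells were lung epithelial cells with Sftpc, the surfactant protein C transcript that marks alveolar type 2 cells, and with many transcripts of Hspa1a and Hspa1b, the neighbouring genes of the stress-inducible chaperone HSP70. A cell barcode was a member, called an Hspa1-high cell here, if it had at least 1000 genes, at most 50000 unique molecular identifiers (UMIs), at most 15% mitochondrial UMIs, no Ptprc UMI, at least 5 Sftpc UMIs and at least 5 UMIs of Hspa1a and Hspa1b together. Of the 42012 deposited barcodes, 28727 met every other part of that rule and 10327 of these were members. The cells they were compared with, called Hspa1-zero cells, met the same other parts and had no Hspa1a or Hspa1b UMI, and there were 11776 of them. The cells were thus chosen by their measured Hspa1a, Hspa1b and Sftpc counts, which are given as a description only.

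The cells came from 10 single-cell RNA-seq libraries in 6 groups. All mice were adults of 8 weeks that carried Sftpc-CreERT2, a tamoxifen-inducible Cre recombinase under a promoter active in alveolar type 2 cells, and all received tamoxifen. In Red2Kras mice, RFP+ cells were mutant and YFP+ cells in the same lungs were wildtype neighbours, whereas in R26R-Confetti mice RFP+ and YFP+ cells were both wildtype. Red2Kras libraries were made 4 days and 2 weeks after induction, with 2 libraries for each colour and time. The Confetti mice gave 1 library for each colour, whose labels name no time and whose time is given as 2 weeks in the study's methods. Cells were sorted as EpCAM+RFP+ or EpCAM+YFP+ after enzymatic digestion of the lung, and the lungs of at least 2 mice were pooled for a sample. The labels do not say whether the libraries of a group came from separate cohorts, so p-values measure the spread between these libraries, which may be in part technical.

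Hspa1a and Hspa1b are targets of the transcription factor HSF1, which is held inactive by chaperones and is released when unfolded proteins, heat or other stresses occupy them. Active HSF1 binds heat-shock elements, which are inverted repeats of the unit GAA, and raises HSP70, its J-domain co-chaperones such as DNAJB1, nucleotide exchange factors such as HSPH1 and BAG3, the HSP90 chaperones and small heat-shock proteins such as HSPB1. Alveolar type 2 cells secrete surfactant and are the progenitors of the alveolar epithelium.

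A library held between 10742481 and 79927159 UMIs over its barcodes, and the 2 weeks RFP replicate 1 library was the deepest. Of 32561 distinct barcode sequences that passed the quality filters, 137 occurred in 2 or more libraries, and 99 Hspa1-high cells had such a barcode; a sequence that recurs need not be the same cell. Hspa1-high cells held more RNA counts than Hspa1-zero cells, and their median UMI count was higher in 10 of 10 libraries. Within libraries the medians ran from 6140 against 6114 UMIs in 4 days YFP replicate 2 to 16671 against 9332.5 in 2 weeks RFP replicate 1. Pooled over all cells they were 8494 against 4433 UMIs and 2319 against 1478 genes, which mixes libraries of unequal depth and class size. The median mitochondrial share of Hspa1-high cells was lower in 10 of 10 libraries. It was 2.09% against 2.12% in 4 days YFP replicate 2, 3.62% against 4.31% in Confetti RFP, and 2.47% against 3.20% when pooled.

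Members were present in every library, but their share of the eligible cells ranged from 4.40% to 86.0%. The Confetti libraries held 7.19% (RFP; exact 95% interval 6.39 to 8.05%) and 6.39% (YFP; 5.66 to 7.19%) Hspa1-high cells. Among 4 days Red2Kras libraries the share was 22.1% in RFP replicate 1, 5.94% in RFP replicate 2, 18.1% in YFP replicate 1 and 4.40% in YFP replicate 2. Among 2 weeks libraries it was 86.0% in RFP replicate 1, 58.1% in RFP replicate 2, 79.4% in YFP replicate 1 and 33.8% in YFP replicate 2. All 4 of the 2 weeks libraries therefore lay above all 4 of the 4 days libraries, and in each of the 4 groups replicate 1 lay above replicate 2. The 2 weeks libraries held 8470 members (82.0%), with 33.5% of all members in RFP replicate 1 and 32.8% in YFP replicate 1 of that time. These intervals cover counting error within a library only, and the plot of shares by library shows that the libraries of a group differed by far more.

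**Figure D1:**
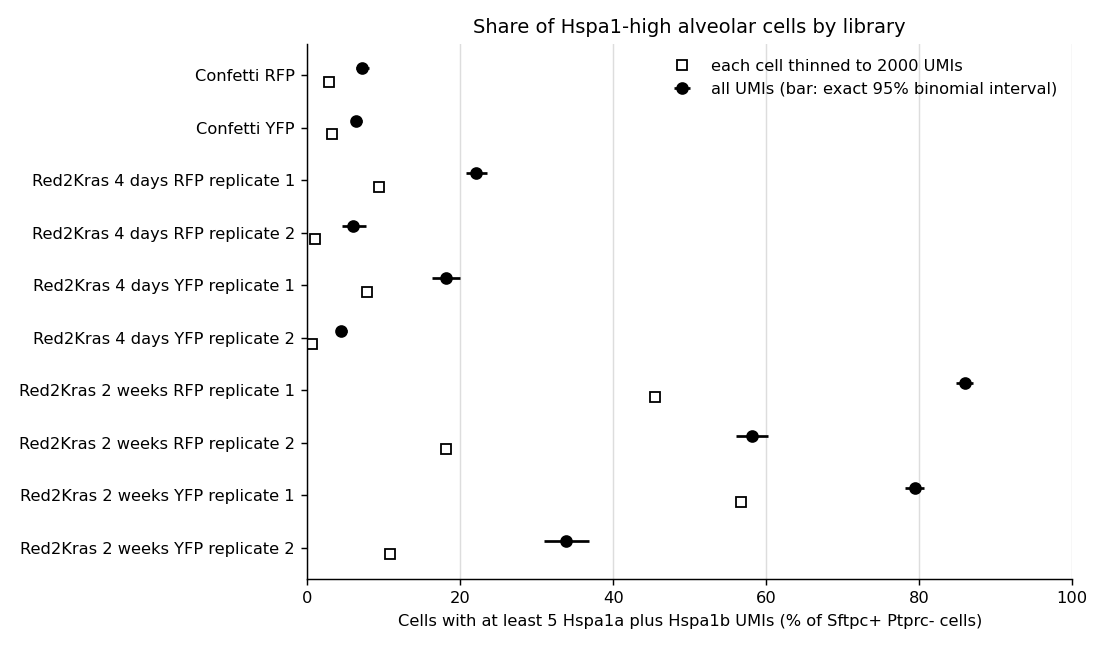
Share of Hspa1-high cells among eligible cells (percent, horizontal axis) in each of the 10 libraries, as counted with exact 95% intervals and after thinning every cell to 2000 UMIs. The 4 libraries of 2 weeks lie furthest to the right, from 33.8% to 86.0% as counted, and the 2 Confetti libraries lie at 6.39% and 7.19%.

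Because a fixed cut of 5 UMIs is reached more easily in deep cells, each cell was also thinned to 2000 UMIs, which left out 0 to 11 cells a library. The thinned shares were 2.79% and 3.22% in the Confetti RFP and YFP libraries. They were 9.33% and 1.04% in 4 days RFP replicates 1 and 2, and 7.77% and 0.546% in 4 days YFP replicates 1 and 2. They were 45.5% and 18.1% in 2 weeks RFP replicates 1 and 2, and 56.7% and 10.8% in 2 weeks YFP replicates 1 and 2. The order of the time points and of the replicates within each group was unchanged by thinning, whereas the order of the colours turned in the Confetti libraries and at replicate 1 of 2 weeks, with YFP above RFP.

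The study compared mutant with wildtype cells and early with later time points, and the share of heat-shock high cells is described for both, with no test, since it is made from the counts that chose the members. The share was 64.4% ± 23.6 (SD, n = 4 libraries) at 2 weeks and 12.6% ± 8.78 (SD, n = 4) at 4 days, a difference of 51.7 percentage points. The difference was 28.1 percentage points after thinning and 44.5 to 61.9 when each library was left out in turn. The share in RFP libraries was 43.0% ± 36.0 (SD, n = 4) and in YFP libraries 33.9% ± 32.6 (SD, n = 4), a difference of 9.08 percentage points, smaller than either SD. RFP was higher in 4 of 4 pairs of the same time and replicate number as counted and in 3 of 4 after thinning. The difference of the means turned to -0.468 after thinning, to -0.764 without 4 days YFP replicate 2 and to -5.24 without 2 weeks RFP replicate 1. The study's methods say that libraries were made on 2 days but not which library on which day, and the labels name no batch, so preparation day cannot be told apart from time or from replicate number here.

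The replicate 1 libraries of Red2Kras were mixtures of cells with Xist, the RNA of the inactive X chromosome in females, and cells with Y-linked transcripts, and members were more frequent among the latter. In 4 days RFP replicate 1, 47.3% of 488 cells with only Y-linked UMIs were Hspa1-high (exact 95% interval 42.8 to 51.9%), against 13.5% of 2323 cells with only Xist UMIs (12.1 to 14.9%). In 4 days YFP replicate 1 the shares were 43.2% of 213 and 11.2% of 1192 cells. In 2 weeks RFP replicate 1 they were 90.1% of 2092 and 79.7% of 1126 cells, and in 2 weeks YFP replicate 1 they were 85.2% of 1647 and 59.6% of 586 cells. Thinned to 2000 UMIs, the same 4 libraries gave 20.1% against 5.77%, 20.2% against 4.87%, 52.7% against 28.1% and 61.3% against 30.7%. Cells with Y-linked UMIs were not high in every library, since in replicate 2 of 4 days, where almost no cell had only Xist UMIs, 6.58% of 304 RFP and 4.03% of 1091 YFP cells with Y-linked UMIs were Hspa1-high. The Confetti libraries held no cells counted as Y-linked only, and 3320 of 3840 RFP and 3326 of 4053 YFP cells had only Xist UMIs. In replicate 2 of 2 weeks, of like composition to that of 4 days, the shares were 60.5% of 1531 RFP and 36.9% of 360 YFP cells. The cells of a library that carry Xist or Y-linked transcripts come from different mice of a pool, so that animal and sex cannot be told apart, and no test was made over the few pools.

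**Figure D2:**
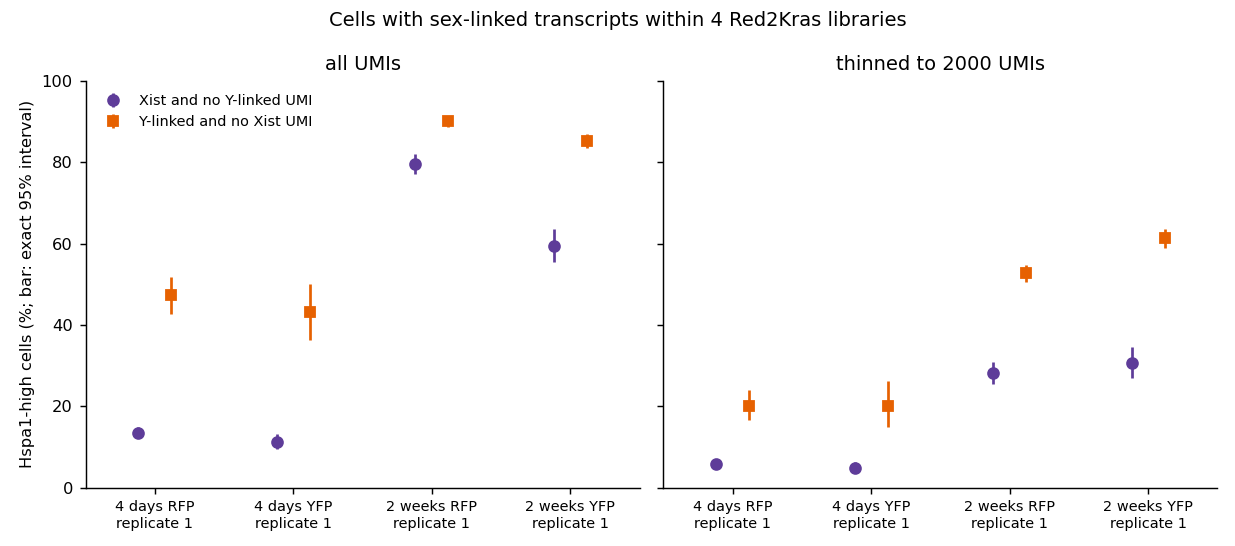
Share of Hspa1-high cells (percent, vertical axis) in cells with only Xist or only Y-linked UMIs of the 4 libraries that hold both kinds, as counted and thinned to 2000 UMIs, with exact 95% intervals of counting error. Cells with Y-linked UMIs lie higher in each library (47.3% against 13.5% in 4 days RFP replicate 1).

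Pooled over libraries, members carried a median of 21 UMIs of Hspa1a and Hspa1b together, with quartiles of 10 and 42 and a highest value of 327. The median of a library ranged from 6 in 4 days YFP replicate 2 to 40 in 2 weeks RFP replicate 1, and the middle of these library medians was 10.5. Both genes were present in 93.5% of members, Hspa1a alone in 3.76% and Hspa1b alone in 2.77%. Summed over the members of a library, and in CPM (UMIs of the gene scaled to a library total of 1e+06 UMIs), Hspa1a ranged from 690 to 2154 with a median of 1213, and Hspa1b from 490 to 2215 with a median of 899. The highest levels of both were in 2 weeks YFP replicate 1, and the lowest were in 4 days YFP replicate 2 for Hspa1a and in 2 weeks RFP replicate 2 for Hspa1b. The 2 genes (ENSMUSG00000091971, chr17:34969190-34972156, and ENSMUSG00000090877, chr17:34956436-34959238, both on the minus strand of GRCm38) are near-identical copies, so reads may have been split between or lost from them. Cells just inside and just outside the cut had similar levels: the 575 cells with 5 Hspa1 UMIs had 474 CPM of Hspb1 and 105 CPM of Dnajb1, and the 733 cells with 4 had 429 and 99.2 CPM.

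The promoters of Hspa1a and Hspa1b hold the same match to a heat-shock element motif of 2 units. It is shown here beside the matches in Hspb1, a further marker of these cells. Also shown is Hspe1, the mitochondrial co-chaperonin with the longest run of units among the printed stretches. The stretches are from RefSeq (GRCm38.p6), 5′ to 3′ on the gene's strand, and capitals mark letters that match GAANNTTC or TTCNNGAA, each of 2 inverted units, with overlapping matches joined. The positions are chr17:34972157-34972286 (minus strand) for Hspa1a, chr17:34959239-34959368 (minus strand) for Hspa1b, chr5:135887789-135887918 (plus strand) for Hspb1 and chr1:55088018-55088147 (plus strand) for Hspe1.
Hspa1a: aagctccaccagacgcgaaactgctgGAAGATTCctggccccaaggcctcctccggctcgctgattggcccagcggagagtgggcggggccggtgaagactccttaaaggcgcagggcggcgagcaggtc
Hspa1b: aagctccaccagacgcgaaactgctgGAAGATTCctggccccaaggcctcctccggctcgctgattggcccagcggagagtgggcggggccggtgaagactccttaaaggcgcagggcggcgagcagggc
Hspb1: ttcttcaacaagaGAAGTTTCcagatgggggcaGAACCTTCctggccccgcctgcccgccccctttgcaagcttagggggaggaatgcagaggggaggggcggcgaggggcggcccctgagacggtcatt
Hspe1: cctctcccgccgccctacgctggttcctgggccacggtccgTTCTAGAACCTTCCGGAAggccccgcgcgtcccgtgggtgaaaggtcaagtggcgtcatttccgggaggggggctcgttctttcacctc
The Hspa1a and Hspa1b stretches differed at 1 of 130 bases, and their whole windows, from 250 bases before to 50 after the start, at 4 of 300. In both, GAAGATTC began 104 bases before the start site.

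Hspb1, Dnajb1 and Hsph1, the other markers of the label, were higher in Hspa1-high than in Hspa1-zero cells of the same library. Hspb1, a small heat-shock protein that holds unfolded proteins (ENSMUSG00000004951, chr5:135887919-135889563, plus strand), ranged over the 10 libraries from 125 to 2657 CPM (median 886) in Hspa1-high cells and from 40.5 to 838 CPM (median 258) in Hspa1-zero cells. The ranges overlapped between libraries, and within a library Hspa1-high cells were higher in 9 of 10, all but 4 days RFP replicate 2 (125 against 169 CPM). Hspb1 rose by 1.55 on the log2 scale (SE 0.17, edgeR adjusted p = 0.000182). Dnajb1, the J-domain partner that delivers substrates to HSP70 (ENSMUSG00000005483, chr8:83608193-83612653, plus strand), ranged from 34.1 to 504 CPM (median 143) against 19.6 to 201 CPM (median 46.2). It was higher in 9 of 10 libraries, all but 4 days YFP replicate 2, and rose by 1.70 (SE 0.18, edgeR adjusted p = 8.56e-05). Hsph1, an HSP110 that reloads HSP70 with ATP (ENSMUSG00000029657, chr5:149614287-149636376, minus strand), ranged from 1.36 to 68.9 CPM (median 24.2) against 4.83 to 28.6 CPM (median 8.62). It was likewise higher in all but 4 days YFP replicate 2, and rose by 1.40 (SE 0.15, edgeR adjusted p = 0.00017).

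**Figure D3:**
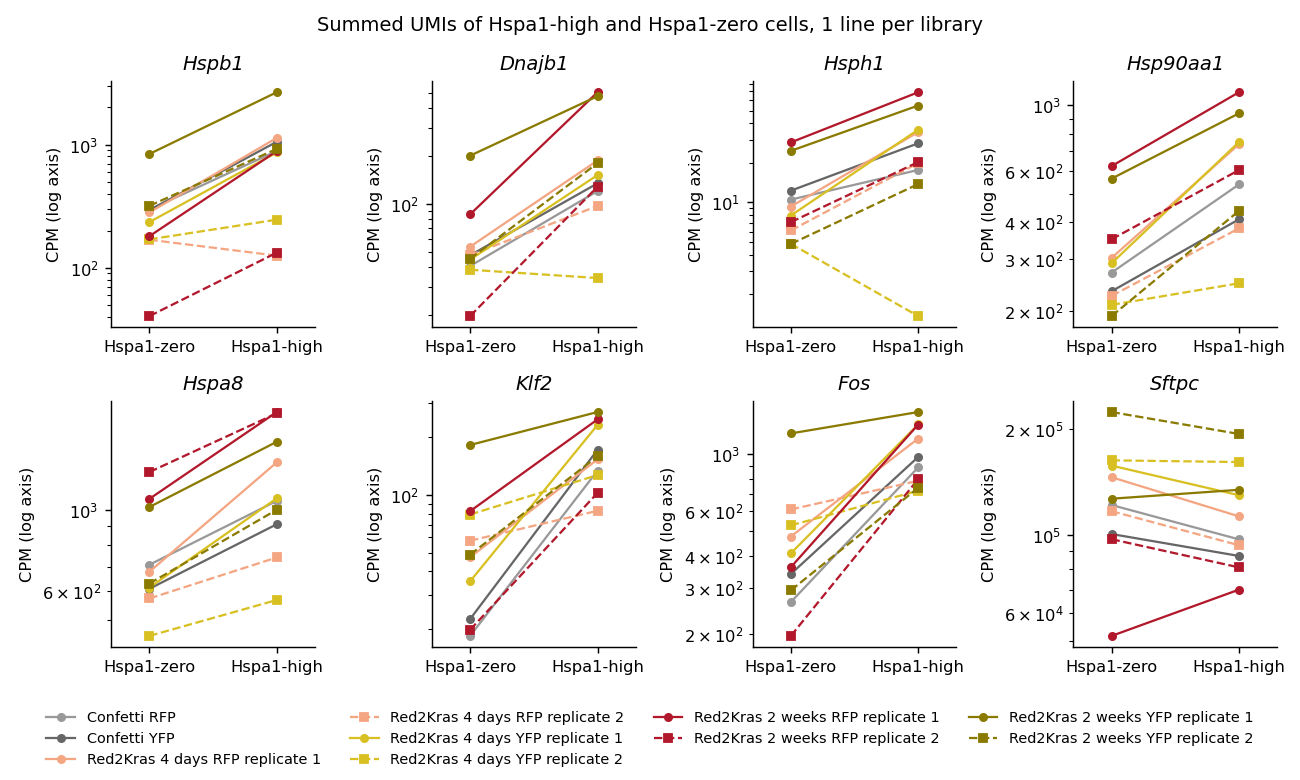
Levels (CPM, log axis) of heat-shock genes, immediate-early genes and Sftpc in Hspa1-zero and Hspa1-high cells, with a line for each of the 10 libraries. Lines go up in 10 libraries for Hspa8 and Fos, in 9 for Hspb1, Dnajb1 and Hsph1 and in 2 for Sftpc, and the libraries start from different levels.

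Over all genes, 223 of 10454 tested (2.13%) differed between the cell classes at an edgeR adjusted p under 0.05, with 178 higher (1.7%) and 45 lower (0.43%) in Hspa1-high cells. The fit took the library as a term, left out Hspa1a, Hspa1b and mitochondrial genes, and had a median log2 fold change of -0.0044. The library term does not remove the uneven make-up of the replicate 1 pools, and Xist itself was called lower in Hspa1-high cells (-0.74, edgeR adjusted p = 0.0259), so class and mouse of origin cannot be fully told apart in these pools. Xist lost the call by DESeq2 (-0.565) and with RFP and YFP libraries summed (-0.642). It also lost the call without both replicate 1 libraries of 2 weeks (-0.481) and without either replicate 1 library of 4 days (-0.679 without RFP, -0.718 without YFP). With 1 kind of cell in each library (only Y-linked UMIs in Red2Kras, only Xist UMIs in Confetti; chosen after seeing the data), 90 of 7449 genes tested (1.21%) were called, 78 higher and 12 lower, and 81 of them were among the 223. In that fit 8 of 27 chaperones, 18 of 25 immediate-early genes, 2 of 8 mitochondrial chaperones and 1 of 10 DATP genes rose, while no oxidative or NF-kB gene did. Since Hspa1-high cells were deeper, the classes were also matched on total UMIs, which gave 304 calls (170 higher, 134 lower), 133 of them shared with the 223. Leaving out a library gave 115 calls without Confetti RFP, Confetti YFP or 4 days RFP replicate 1, 106 without 4 days YFP replicate 1 and 374 without 2 weeks RFP replicate 1. Without the library term, where the group took its place as the term, 3 genes were called. With the replicate 1 libraries of Red2Kras alone 23 were called, and with the replicate 2 libraries alone 38.

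Of 28 cytosolic heat-shock chaperones and co-chaperones, all tested, 11 rose, none fell and 17 did not pass, with a list median of 0.25. Beside the 3 markers, the constitutive HSP70 Hspa8 ranged from 568 to 1842 CPM (median 1065) against 453 to 1265 CPM (median 653), was higher in 10 of 10 libraries and rose by 0.63 (SE 0.06, edgeR adjusted p = 4e-05). Hsp90aa1, the inducible cytosolic HSP90, ranged from 248 to 1108 CPM (median 570) against 192 to 621 CPM (median 280), was higher in 10 of 10 libraries and rose by 0.91 (SE 0.08, adjusted p = 4e-05). Its constitutive paralogue Hsp90ab1 rose by 0.54, and Dnaja1, a J-domain co-chaperone of HSP70, by 0.71, each in 10 of 10 libraries. The remaining members that rose were Bag3, a nucleotide exchange factor of HSP70 in selective autophagy, by 0.70, its partner Hspb8 by 0.55, the small heat-shock protein Cryab by 0.44 and Ahsa1, an activator of the HSP90 ATPase, by 0.34 (adjusted p = 0.0301). The HSP110 family member Hspa4 (-0.02), the HSP70 and HSP90 adaptor Stip1 (0.17) and the regulator Hsf1 itself (-0.06) did not pass, with adjusted p from 0.377 to 0.972. The summed level of the list was 3161 to 8727 CPM in Hspa1-high and 2827 to 5414 CPM in Hspa1-zero cells and was higher in 10 of 10 libraries. From 10 to 13 members rose when each library was left out, 12 after matching on total UMIs, 7 in the replicate 1 libraries alone, 5 in the replicate 2 libraries alone (Dnajb1, Hspa8, Hsp90aa1, Hsp90ab1 and Dnaja1), and 0 without the library term.

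A heat-shock element motif of 2 units, GAANNTTC or TTCNNGAA (both palindromic, so read alike on both strands), was present in 15.1% of all 32851 RefSeq promoter windows of 300 bases and in 13.5% of the 8271 genes tested that had a window. It was present in 28 of 140 genes called higher (20%) and in 2 of 34 called lower (5.88%). Of the 11 chaperones that rose, 7 had a window and 5 of those held the motif, against 5 of 15 chaperones with a window that did not pass. Hspb1 held GAAGTTTC and GAACCTTC, beginning 117 and 97 bases before the start as printed above, and Dnaja1 held GAAAATTC 124 bases before a start. Hsph1 held the 3-unit form, TTCNNGAANNTTC, as TTCTGGAAAGTTC at 37 or 16 bases after its annotated starts. This form and the other 3-unit form, GAANNTTCNNGAA, were together found in 0.603% of all windows, in 1 of 7 chaperones that rose and in 2 of 15 that did not pass. Bag3 and Hspb8 held GAAGTTTC after the start site, while these letters were not in the windows of Dnajb1 and Ahsa1. Of the immediate-early genes that rose, 1 of 17 with a window held the 2-unit motif. A match is a description of the sequence and was not tested as a binding site.

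Mean chaperone levels were higher in cells with more Hspa1 UMIs, also within the members. Averaged over libraries, Hspb1 was at 282 CPM in cells with 0 Hspa1 UMIs (n = 10 libraries), 374 with 1 to 4 (n = 10), 561 with 5 to 9 (n = 10), 821 with 10 to 19 (n = 10), 1548 with 20 to 49 (n = 8) and 1983 with 50 or more (n = 5). Dnajb1 followed the same order from 63.2 CPM over 77.1, 112, 151 and 285 to 535 CPM. Hspa8 went from 769 to 2003 CPM, the immediate-early gene Fos from 466 to 1865 CPM and Klf2, a transcription factor gene induced by flow and stress, from 59.2 to 397 CPM. Sftpb, the surfactant protein B gene, had means of 7243 and 6466 CPM at those ends and no common direction among libraries. Within single libraries the mean increased at every step in 8 of 10 libraries for Hspb1 and for Hspa8, in 5 for Dnajb1, in 4 for Fos and in 1 for Hsph1. Different libraries fill the upper bins, and these values are a description without a test.

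**Figure D4:**
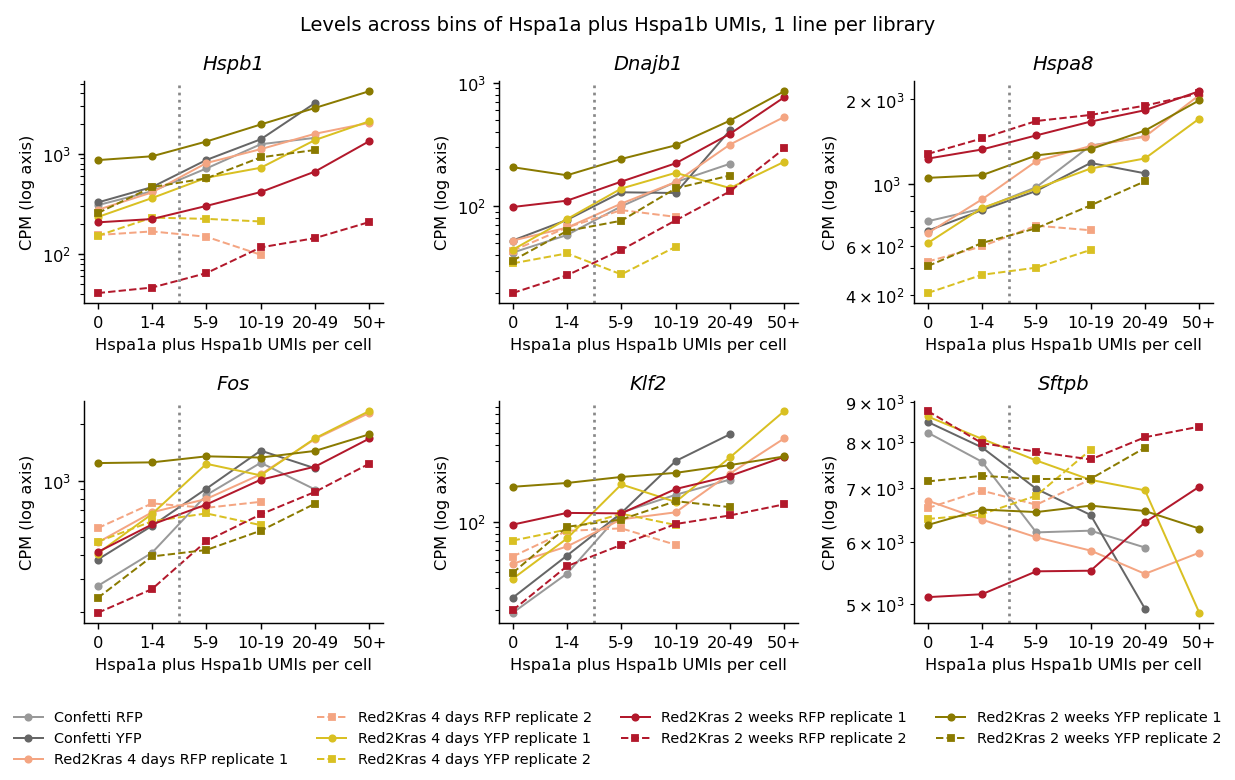
Level (CPM, log axis) of chaperone, immediate-early and control genes by the number of Hspa1a plus Hspa1b UMIs of a cell, with a line for each library and a dotted line at the cut of 5 UMIs. The mean of Hspb1 over libraries goes from 282 CPM at 0 UMIs to 1983 CPM at 50 or more, while Sftpb goes up in some libraries and down in others.

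Immediate-early genes, the first transcripts to appear after a growth factor or stress signal, were the list with the most members higher in Hspa1-high cells: 19 of 25 rose, none fell, and the list median was 0.80. Fos, a subunit of the AP-1 transcription factor, ranged from 719 to 1456 CPM (median 931) in Hspa1-high cells and from 196 to 1202 CPM (median 386) in Hspa1-zero cells, was higher in 10 of 10 libraries and rose by 1.26 (SE 0.16, edgeR adjusted p = 0.000374). Its partner Jun ranged from 618 to 1368 CPM (median 1119) against 214 to 1201 CPM (median 486) and rose by 1.14 (SE 0.17, adjusted p = 0.00128). Klf2 had the highest fold change of the list, with 82.6 to 270 CPM (median 156) against 18.4 to 182 CPM (median 48.1), and rose by 1.80 (SE 0.22, adjusted p = 0.000345). Each was higher in 10 of 10 libraries, although the highest Hspa1-zero levels exceeded the lowest Hspa1-high levels of other libraries. Egr1, a zinc finger factor, rose by 1.56, Klf4 by 1.32, the stress factor Atf3 by 1.27, Fosb by 1.24, the small GTPase gene Rhob by 1.01, Klf6 by 0.94, the MAP kinase phosphatase Dusp1 by 0.88, Jund by 0.81 and the antiproliferative Btg2 by 0.80. Ier3 (0.52, adjusted p = 0.0557) and Myc (0.82, adjusted p = 0.0642) were among the 6 that did not pass. The summed level was 6437 to 12370 CPM in Hspa1-high and 2801 to 11350 CPM in Hspa1-zero cells and was higher in 10 of 10 libraries. Between 18 and 24 members rose when each library was left out, 14 with RFP and YFP libraries summed and 23 after matching on total UMIs, but 8 rose in the replicate 2 libraries alone, 1 (Rhob) in the replicate 1 libraries alone and 1 without the library term. Outside the list, the matricellular gene Cyr61 rose by 1.20 and Ddit4, an inhibitor of mTORC1, by 0.78, each in 10 of 10 libraries.

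Other stress programmes moved in few members. Among 8 mitochondrial chaperones and proteases, Hspe1 (0.55, SE 0.09, edgeR adjusted p = 0.00309) and its partner Hspd1 (0.42, adjusted p = 0.00397), the mitochondrial HSP10 and HSP60, rose and the list median was 0.02. None of 7 tested subunits of the cytosolic chaperonin ring passed (median 0.06; Cct3 0.25, adjusted p = 0.0638). Of 19 endoplasmic reticulum stress genes 2 rose (median 0.12), namely the collagen chaperone Serpinh1 by 0.55 and the J-domain protein Dnajb9 by 0.31 with an adjusted p of 0.04999. Serpinh1, although resident in the endoplasmic reticulum, is known as a heat-shock gene. None of 26 tested proteasome subunits passed (median 0.08), and 24 had a positive fold change. Of 11 tested oxidative and metal stress genes 2 rose (median 0.10), the growth inhibitor Osgin1 by 0.44 and the metallothionein Mt1 by 0.43, while Mt2 was at 0.48 (adjusted p = 0.051). Of 14 tested NF-kB response genes the chemokine gene Cxcl1 rose by 0.83 and Nfkbiz, an atypical IkB protein, by 0.39 (median 0.28). Of 8 tested interferon response genes Bst2 rose by 0.49 and Isg15 by 0.57 (median 0.53). Of 11 tested glycolysis and hypoxia genes Gapdh rose by 0.27 (median 0.12). The mitochondrial list held 2 that rose in each of the 10 fits that left out a library, whereas the other small counts moved: without either Confetti library, 1 endoplasmic reticulum, 1 oxidative and 1 interferon gene rose and no NF-kB or glycolysis gene, and no NF-kB gene rose without 4 days YFP replicate 1 or 2 weeks YFP replicate 2. With RFP and YFP libraries summed, no oxidative, interferon or glycolysis gene, 1 NF-kB gene and 1 mitochondrial gene rose. The mitochondrial count was also 1 after matching on total UMIs and in the replicate 1 libraries alone. It was 0 in the replicate 2 libraries alone and without the library term. Without either replicate 1 library of 2 weeks, 4 endoplasmic reticulum genes rose.

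Of the alveolar type 2 genes other than Sftpc, which chose the cells, none of 17 passed in either direction in the main fit, 1 had a positive fold change and the median was -0.10. Sftpb, which the rule did not use, ranged from 5678 to 8836 CPM in Hspa1-high and from 4440 to 8863 CPM in Hspa1-zero cells, so the ranges overlapped and both classes held this marker. Values were -0.27 for the transcription factor Etv5 (adjusted p = 0.0541) and -0.28 for the lamellar body lipid transporter Abca3 (adjusted p = 0.112). Some of these genes were called lower in other fits of all libraries, with 1 each by DESeq2 (Etv5), with DESeq2 size factors and without high Scrublet scores, 2 after thinning, and 3 each with a cut of 10 UMIs and with no filter on low counts. Without 2 weeks RFP replicate 1, 7 of the 17 fell, without 4 days YFP replicate 2, 2 fell, without 2 weeks YFP replicate 1, 1 fell, and without both replicate 1 libraries of 2 weeks 10 fell, with the lysozyme gene Lyz2 at -0.35 and Etv5 at -0.35. None of 6 tested primed AT2 genes, an inflammatory set with Lcn2 (0.10, adjusted p = 0.423), passed (median 0.03).

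Genes of the transitional state known as DATP, which lies between type 2 and type 1 cells in repair, rose in 5 of 13 members, with a median of 0.50. They were the epidermal growth factor receptor ligands Areg, by 0.95 (SE 0.19, edgeR adjusted p = 0.0131), and Hbegf, by 0.89 (adjusted p = 0.00418), the cell cycle inhibitor Sfn by 0.71 and the keratins Krt18 and Krt8, each by 0.50. Areg ranged from 112 to 960 CPM (median 342) against 91.7 to 706 CPM (median 147) and was higher in 8 of 10 libraries. From 3 to 7 members rose when each library was left out, with 3 without either Confetti library, either replicate 1 library of 4 days or either replicate 2 library of 2 weeks, 3 of 9 tested rose after matching on total UMIs and 2 with RFP and YFP libraries summed. None of the 13 rose in the replicate 1 libraries alone, in the replicate 2 libraries alone or without the library term. Of 10 tested alveolar type 1 genes, Hopx rose by 0.58 and the chloride channel protein Clic5 by 0.37 (median 0.11), and none rose with RFP and YFP libraries summed, without either Confetti library, without either replicate 1 library of 4 days or without 2 weeks YFP replicate 2. None of 4 tested Cd177 mixed-state genes passed (median 0.82; Cd38 0.85, adjusted p = 0.149), and they were carried by few libraries, with sums of 1.36 to 2581 CPM in Hspa1-high cells.

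**Figure D5:**
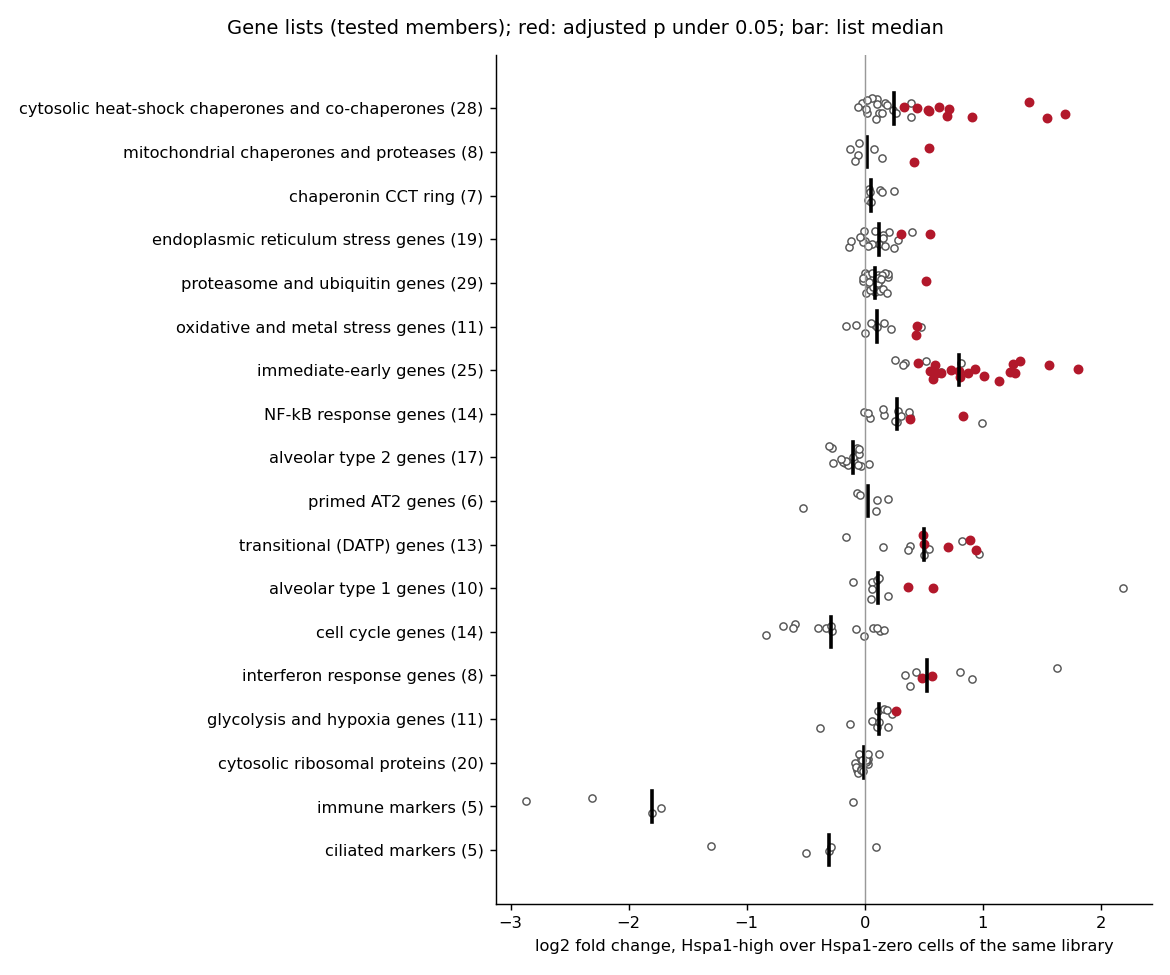
Log2 fold change of Hspa1-high over Hspa1-zero cells (horizontal axis) for each tested gene of the lists with at least 5 tested members, with filled points for edgeR adjusted p under 0.05 and a bar at the list median. Immediate-early genes (19 of 25 called, median 0.80) and cytosolic chaperones (11 of 28 called, median 0.25) hold most calls, and alveolar type 2 genes without Sftpc (0 of 17, median -0.10) hold none.

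None of 14 cell cycle genes passed, with a median of -0.28 and Mki67, a mark of cycling cells, at -0.84 (adjusted p = 0.0568) and 0 of 10 libraries higher. With the classes matched on total UMIs 9 of the 14 fell and Mki67 was at -1.75. None of 20 cytosolic ribosomal protein genes (median -0.01; Rps2 0.12, adjusted p = 0.212) and none of 4 nuclear-retained long RNAs (median -0.01; Malat1 -0.02, adjusted p = 0.933) passed.

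Fewer genes were called lower (45) than higher (178) in Hspa1-high cells, and after matching on total UMIs 134 were lower and 170 higher. Among the genes named for a level of at least 20 CPM and the same sign in every library, the largest falls were smaller than the largest rises. Bex2, a small adaptor protein, ranged from 9.52 to 238 CPM (median 118) in Hspa1-high and from 40.3 to 463 CPM (median 226) in Hspa1-zero cells, was lower in 10 of 10 libraries and fell by 1.20 (SE 0.16, edgeR adjusted p = 0.000547). Lars2, the mitochondrial leucyl-tRNA synthetase, ranged from 5.7 to 26.6 CPM (median 13.6) against 12.8 to 43.7 CPM (median 27.4) and fell by 0.88 (SE 0.11, adjusted p = 0.000416). The cystatin Cst8 fell by 0.75 and Fam178b by 0.69. Heatr1, needed for ribosomal RNA synthesis, fell by 0.50, the fucosyltransferase Fut8 by 0.42, the lipid-cleaving carboxylesterase Ces1d by 0.42, the insulin receptor Insr by 0.39, the sorbitol dehydrogenase Sord by 0.38 and the monocarboxylate transporter Slc16a7 by 0.37. These 10 genes were lower in 10 of 10 libraries, as the rule that named them required.

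Markers of other cell types were low but not equal between the classes. Pecam1, an endothelial surface protein, had a UMI in 208 of 10327 Hspa1-high cells (2.01%) and 44 of 11776 Hspa1-zero cells (0.374%), in 0 to 5.13% and 0 to 2.67% of the cells of a library, and was called higher (3.37, edgeR adjusted p = 0.00155). It was 1 of 2 tested of 5 endothelial markers, whose sum was 17.1 to 365 CPM against 14.6 to 46.1 CPM, and Egfl7 did not pass (1.04, adjusted p = 0.0642). Egfl7 was called higher after matching on total UMIs (1.04), after thinning (1.20), with a cut of 10 UMIs (1.16), with no filter (1.02), without 2 weeks RFP replicate 2 (1.22) and without both replicate 1 libraries of 2 weeks (1.12). Mgp, of the mesenchymal list, was called higher (3.12, adjusted p = 0.0135) as the 1 tested of 5, with a list sum of 0 to 188 CPM against 0 to 28.4 CPM. None of 5 tested immune markers (median -1.81; Tyrobp -1.81, adjusted p = 0.0557), 5 ciliated markers (median -0.30), 2 airway secretory markers (median 0.06) and 2 erythroid markers (median -0.34) passed. In other fits immune markers were called lower, with 3 of 5 without cells that had a Pecam1, Col1a1 or Foxj1 UMI, 2 of 5 without 4 days YFP replicate 1, 2 of 4 in the replicate 2 libraries alone and 4 of 8 with no filter on low counts. Of the ciliated markers, 2 of 3 were called lower with a cut of 10 UMIs, 1 of 2 after matching or thinning, 1 of 3 without 4 days YFP replicate 1 and 1 of 5 with no filter. Of the airway secretory markers, 1 of 1 was lower after matching and 1 of 2 higher in the replicate 1 libraries alone. High Scrublet doublet scores marked 3.52% of Hspa1-high and 2.19% of Hspa1-zero cells when pooled. Hspa1-high cells had the lower share in Confetti RFP (2.17% against 2.67%) and 4 days YFP replicate 2 (0.775% against 2.43%), and the higher share in the other libraries. Without cells that had a Pecam1, Col1a1 or Foxj1 UMI, 226 genes were called, 13 of 28 chaperones and 20 of 25 immediate-early genes rose, while Pecam1 and Mgp were not among the genes tested and Egfl7 was at 0.06 (adjusted p = 0.911). Pecam1 was not among the genes tested without 4 days RFP replicate 1, without 4 days YFP replicate 1, without either RFP library of 2 weeks or with 1 kind of cell in each library, and was not called with RFP and YFP libraries summed. Mgp was not called by DESeq2, with RFP and YFP libraries summed or without 4 days RFP replicate 1. It was not among the genes tested without Confetti YFP, 4 days YFP replicate 1 or either replicate 1 library of 2 weeks, or with 1 kind of cell. Neither Pecam1 nor Mgp was among the genes tested after matching on total UMIs, after thinning or with a cut of 10 UMIs. The same held without both replicate 1 libraries of 2 weeks and in the replicate 2 libraries alone.

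Members of mutant and wildtype libraries were then compared with each other. In Hspa1-high cells of Red2Kras, 25 of 10387 genes tested (0.241%) differed between RFP and YFP libraries in a fit with the time point as a term (edgeR adjusted p under 0.05), 21 higher (0.202%) and 4 lower (0.0385%) in RFP. None of the 28 chaperones and none of the 25 immediate-early genes was among them. When libraries of the same time and replicate number were paired, 1072 genes (10.3%) were called, 586 higher (5.64%) and 486 lower (4.68%) in RFP. These held 2 of the 28 chaperones, the calcyclin-binding protein gene Cacybp (0.66, SE 0.16, edgeR adjusted p = 0.0337) and the HSP90 gene Hsp90ab1 (0.80, SE 0.22, adjusted p = 0.0453). They held 3 of the 25 immediate-early genes, with Myc (2.06) and Ier5 (0.91) higher and Gadd45g (-0.85) lower, so both shares were near that over all genes. Hspb1 in Hspa1-high cells was 1132, 125, 884 and 133 CPM in the RFP libraries (4 days replicates 1 and 2, then 2 weeks replicates 1 and 2) and 863, 246, 2657 and 922 CPM in the YFP libraries, which overlapped. Dnajb1 was 187, 96.9, 504 and 128 CPM in RFP and 152, 34.1, 476 and 180 CPM in YFP libraries, which overlapped too.

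The 5 genes with the lowest p in that comparison were Kif23, Tubb6, Hist1h1b, Psrc1 and Etv4, and none of the 14 cell cycle genes of the list was called (list median 1.85). With the pairing 13 of the 14 were called higher (median 1.90) and 8 of 13 DATP genes (median 1.19), and with DESeq2 10 and 7. Kif23, a kinesin of cytokinesis, was 17.5, 37.0, 28.7 and 24.6 CPM in the RFP libraries in that order and 2.75, 4.09, 5.53 and 4.89 CPM in the YFP libraries, without overlap, and rose by 2.46 (SE 0.29, edgeR adjusted p = 0.0196). Etv4, an ETS family transcription factor, was 11.99, 19.95, 17.9 and 26.1 CPM in RFP and 0, 1.36, 0.984 and 3.56 CPM in YFP libraries, without overlap, and rose by 3.99 (SE 0.52, adjusted p = 0.0196). Psrc1, a spindle protein, rose by 1.86, the tubulin gene Tubb6 by 2.99 and the linker histone gene Hist1h1b by 3.23. Among the other calls, chosen after their values were seen, were Cd177, the serine synthesis enzyme Phgdh and the chromatin protein Hmga2, higher by 4.40, 3.38 and 4.34, and Epas1, a hypoxia-inducible factor, lower by 1.32. The count rested on single libraries and on the pairing: 0 genes were called without 4 days YFP replicate 2 or without 2 weeks RFP replicate 1, 3 without 4 days RFP replicate 1, 5 without 4 days RFP replicate 2, 53 without 2 weeks RFP replicate 2, 54 without 2 weeks YFP replicate 1, 135 without 4 days YFP replicate 1, and 1072 with the pairing. With DESeq2 447 genes were called.

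Whether the difference between Hspa1-high and Hspa1-zero cells itself varied with colour or time was tested as an interaction. Between RFP and YFP libraries 0 of 11243 genes (0.0%) were called by edgeR, 354 had an unadjusted p under 0.05 and DESeq2 called 0. Among the lowest p were those of Mcpt1 (5.53), Il24 (-5.91), Kif23 (1.38) and Ccnb2 (1.92), the smallest adjusted p being 0.406. For Dnajb1 the fold change was higher in RFP libraries by 0.77 (SE 0.38), for Hspb1 by 0.13 (SE 0.43) and for Hspa8 by 0.07 (SE 0.15), none of which passed. The count became 1 without 4 days RFP replicate 1 and 4 without 2 weeks RFP replicate 2. Between 2 weeks and 4 days, 1 of 11243 genes (0.00889%) was called and 662 had an unadjusted p under 0.05. The gene was the chemokine gene Ccl21a, which was at 45.1 and 30.1 CPM in Hspa1-zero cells of 4 days RFP and YFP replicate 1 and at 0 in their Hspa1-high cells, and at 5.21 and 14.3 CPM in Hspa1-high cells of 2 weeks RFP and YFP replicate 1 and at 0 in their Hspa1-zero cells. It was not called without cells that had a Pecam1, Col1a1 or Foxj1 UMI, without 4 days RFP replicate 1, without high Scrublet scores or by DESeq2, and was not among the genes tested after matching on total UMIs, while 9 genes were called without 4 days YFP replicate 2 or 2 weeks RFP replicate 2. The fold changes of Dnajb1 and Hspb1 were higher at 2 weeks by 0.81 (SE 0.37) and 0.64 (SE 0.39), with edgeR adjusted p of 0.842 and 0.908.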

How the data were processed

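The authors deposited UMI counts per gene and barcode for each of 10 single-cell libraries, as filtered matrices of 31053 genes. The file headers name Cell Ranger 5.0.1, whereas the submitters' processing notes name Cell Ranger 3.1.0, FastQC 0.11.3, MultiQC 1.8 and GRCm38. The members and gene lists were chosen with earlier results of these data known. Counts were summed per library and cell class without Hspa1a, Hspa1b and 13 mitochondrial genes, and CPM of the classes are counts scaled by the TMM effective total. CPM of cells just inside and outside the cut, and of Hspa1a and Hspa1b over all eligible cells, were scaled by raw UMI totals. CPM by bin of Hspa1 UMIs are not on the TMM scale either and differ slightly from the class values of the same cells. edgeR 4.0.16 (R 4.3.3; filterByExpr, quasi-likelihood, Benjamini-Hochberg over all genes tested, threshold 0.05) was the main test, checked on simulated data; DESeq2 1.42.0 was an alternative. Named genes were the 10 largest changes in each direction, among called genes of at least 20 CPM with the same sign in every library, and the 3 of lowest p of each list. RFP and YFP libraries of the same replicate number deviated together (correlation 0.353 at 4 days, 0.622 at 2 weeks), so paired fits are given beside the main fits of colour, which were not paired. Replicates differed by more than sampling noise. Scrublet was run in scanpy 1.11.5, and intervals of shares are from scipy 1.17.1. Permutation tests of the shares had been planned but are not given, since the shares are made from the counts that chose the cells. Barcodes that failed the filters and cells with 1 to 4 Hspa1 UMIs entered no class. Some genes are not reported here.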

Additional observations from a re-analysis of the deposited data

Results flagged for a closer look

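With 25 sets of libraries tested for a single distant value, chance alone marks about 1 in 20. The log2 ratio of Hsph1 between Hspa1-high and Hspa1-zero cells was -1.30 in 4 days YFP replicate 2, far from the other 9 libraries, where it was above 0, and its level of 1.36 CPM there was the lowest of all. The log2 ratio of Ces1d was -1.06 in 2 weeks RFP replicate 2 and closer to 0 in the other libraries. The difference between time points in the fold change of Ccl21a was 19.1 on the log2 scale, a fitted value of a gene at 0 in several class sums and no bound.

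UMIs of Hspa1a and Hspa1b were also counted in cells with a UMI of Ptprc, a leukocyte marker that the rule leaves out. In 2 weeks RFP replicate 1, 38.3% of 149 such cells had at least 5 Hspa1 UMIs, and in 2 weeks YFP replicate 1, 36.0% of 139, against 6.06% of 66 and 8.93% of 56 in the Confetti RFP and YFP libraries. The median UMI counts of these cells were 8610, 6236, 4842 and 4296 in that order. The shares among the alveolar cells of these libraries were 86.0%, 79.4%, 7.19% and 6.39%. The 2 shares did not move together in every library. In 2 weeks RFP replicate 2, 15.9% of 699 Ptprc cells were high against 58.1% of the alveolar cells, and in 2 weeks YFP replicate 2, 6.58% of 608 against 33.8%. At 4 days the values were 8.11% of 37 against 22.1% in RFP replicate 1, 3.18% of 157 against 5.94% in RFP replicate 2, 16.1% of 87 against 18.1% in YFP replicate 1 and 3.96% of 101 against 4.40% in YFP replicate 2. No background share was estimated.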

How the results depend on the processing

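The library is the replicate, members are unevenly spread (57 to 3463 a library), and neither a batch nor each library's preparation day is labelled, so time, animals and preparation cannot be told apart. Of the 44 named genes that were called between Hspa1-high and Hspa1-zero cells, none turned direction under an alternative, 13 lost the call in at least 1 of the fits that left out a library, 16 lost it with RFP and YFP libraries summed, 35 in the replicate 1 libraries alone, 29 of 42 tested in the replicate 2 libraries alone, 16 of 42 tested with 1 kind of cell by Xist and Y-linked UMIs in each library, and 43 lost it without the replicate block. The fit without the replicate block took the group as the term in place of the library. The cause of the changes below was not tested.

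The 223 calls between the classes became 109 with RFP and YFP libraries summed, 3 with no replicate block and 693 without a filter on low counts. Alternatives chosen after seeing the data gave 590 without both replicate 1 libraries of 2 weeks, 90 with 1 kind of cell by Xist and Y-linked UMIs, 23 in the replicate 1 and 38 in the replicate 2 libraries alone. Leaving out each library gave 106 to 374. The 25 calls between RFP and YFP Hspa1-high cells became 447 with DESeq2, 1072 with the replicate block, 67 with a cut of 10 UMIs, 984 without a filter, 112 without cells with Pecam1, Col1a1 or Foxj1, and 0 to 135 without each library (1674 and 1155 genes at an unadjusted p under 0.05 in the fits with 0). The 0 calls of the interaction with colour became 115 without a filter, 1 without cells with those 3 genes and 0 to 4 without each library. The 1 call of the interaction with time became 6 with DESeq2, 15 with a cut of 10 UMIs, 4 after matching on total UMIs, 0 without high Scrublet scores, 259 without a filter, 0 without cells with those 3 genes and 0 to 9 without each library.

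The difference in share between RFP and YFP turned to -0.468 percentage points after thinning and, as CPM of Hspa1a and Hspa1b over all eligible cells, to -93.8, and spanned -5.24 to 24.3 without each library (-0.764 without 4 days YFP replicate 2). The share at 2 weeks exceeded that at 4 days by 44.5 to 61.9 percentage points without each library. Paired by replicate number, the mean differences were 9.08 and 51.7 percentage points, as without pairing.

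Genes that were not called turned sign as follows, as log2 fold changes. After matching on total UMIs, Cct8 was at -0.00986, Rps2 at -0.0224, Neat1 at 0.0487 and Malat1 at 0.165. With 1 kind of cell, Dnaja3 was at -0.024 and Hbb-bs at 2.25. Without both replicate 1 libraries of 2 weeks, Neat1 was at 0.0185, Malat1 at 0.0116 and Rsph1 at 0.174. In the replicate 2 libraries alone, Lcn2 was at -0.00742, Orm1 at -0.0561, Neat1 at 0.034, Rpl5 at 0.0181, Egfl7 at -0.0998 and Scgb3a2 at -2.54, and in the replicate 1 libraries alone Scgb1a1 was at 1.48. Without the replicate block Orm1 was at -0.0941, and with colours summed Rpl5 was at 0.00435. Scgb3a2 was at -0.835 with a cut of 10 UMIs and at -0.992 without cells with the 3 genes, Hbb-bs was at 0.215 with DESeq2, and Hbb-bs and Hba-a1 were at 0.742 and 0.763 without high Scrublet scores. Without each library in turn, Neat1 spanned -0.133 to 0.00748 and Malat1 -0.0348 to 0.0185, both positive only without 2 weeks RFP replicate 1, Scgb3a2 -0.193 to 1.12, Scgb1a1 -0.729 to 0.16, Hbb-bs -1.24 to 0.432 and Hba-a1 -1.04 to 0.462. In the interactions, Il24 spanned -8.37 to 1.46 without each library and Vim was at 0.281 without cells with the 3 genes.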
